A study of Mus musculus with 10 samples.

Results

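The Serpina1 and Serpina3 genes are multi-copy families of clade A serpins on mouse chromosome 12. The 10 members described here are Serpina1a, Serpina1b, Serpina1c, Serpina1d, Serpina1e, Serpina3c, Serpina3g, Serpina3k, Serpina3m and Serpina3n. They were taken by symbol from these families, which hold 8 further annotated copies. No measured value enters that rule, but the members were chosen with earlier results of these data known. They are 10 of the 55401 genes in the count tables, and 9 of them passed the filter for testing (a level of 1 CPM, reads scaled to the library total, reached in 5 or more libraries). Serpina3c did not.

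Liver mRNA was sequenced in 2 genotypes of mice, 5 wild-type and 5 with a liver-specific THRB knockout (Thrb hep-/-), to ask which hepatic transcripts depend on the thyroid hormone receptor beta of hepatocytes. The sample titles give the strain of all mice as C57Bl6/J, the wild-type mice were littermates, and all were kept on standard chow with no treatment. The study describes the deletion as hepatocyte-specific and lists the cross as floxed Thrb with Afp-Cre. Thrb was not measured here by cell type or by exon. The sex and age of these mice and the hour of collection are not given in the sources used here. Thrb itself measured 33.4, 34.2, 32.5, 33.5 and 32.9 normalized CPM in wild-type mice 1 to 5, against 25.1, 24.9, 28.7, 25.9 and 28.8 in Thrb hep-/- mice 1 to 5. Every Thrb hep-/- mouse was below every wild-type mouse, but most of the Thrb counts remained (log2 fold change −0.32, standard error 0.067, edgeR adjusted p = 0.036). Libraries held 26477195 to 28590704 counts, and the 10 members together took 2.34% to 3.42% of them. The summed level of 5 hepatocyte markers was 79160.0 to 121505 CPM in wild-type livers and 95729 to 107754 CPM in Thrb hep-/- livers, and none of the 5 passed the test. Ttr came closest (log2 fold change 0.30, edgeR adjusted p = 0.18). Its genotypes did not overlap, at 5601 to 6049 normalized CPM in wild-type and 6553 to 7776 in Thrb hep-/- livers.

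Serpins are protease inhibitors that act once. An exposed reactive centre loop near the carboxyl end serves as bait, and when a protease cuts it the serpin changes shape and traps the enzyme in a covalent complex. Mice carry several copies of each gene where humans have a single SERPINA1, encoding the elastase inhibitor alpha-1-antitrypsin, and a single SERPINA3, encoding alpha-1-antichymotrypsin. Hepatocytes secrete both proteins in large amounts, and some copies belong to the acute-phase proteins of the liver.

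The loop is where the copies of a family differ most, and the DNA that codes for it is shown here because it distinguishes members that otherwise share most of their sequence. The 5 Serpina1 stretches below come from GENCODE transcripts on GRCm38, read 5′ to 3′ on the coding strand. Each lies in 1 exon, and capitals mark the 51 bases between the conserved hinge of the loop and the conserved bases that follow it.
Serpina1a: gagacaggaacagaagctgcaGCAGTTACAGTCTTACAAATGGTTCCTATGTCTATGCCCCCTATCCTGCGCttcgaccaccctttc
Serpina1b: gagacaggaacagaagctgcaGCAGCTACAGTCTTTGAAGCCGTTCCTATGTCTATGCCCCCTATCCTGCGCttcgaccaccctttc
Serpina1c: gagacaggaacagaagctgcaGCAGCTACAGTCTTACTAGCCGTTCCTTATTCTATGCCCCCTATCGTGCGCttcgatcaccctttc
Serpina1d: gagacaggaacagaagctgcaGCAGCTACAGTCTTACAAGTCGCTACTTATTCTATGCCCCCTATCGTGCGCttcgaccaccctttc
Serpina1e: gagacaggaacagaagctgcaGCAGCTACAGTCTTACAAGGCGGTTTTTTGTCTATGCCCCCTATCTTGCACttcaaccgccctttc

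Over the whole coding sequence the Serpina1 copies were 96.3% to 98.5% identical in their 10 pairs. Over the capital bases the identity was 80.4% to 92.2%. Serpina1c and Serpina1d were the closest pair there, with 47 of 51 bases in common, and Serpina1a and Serpina1e the most distant, with 41 of 51.

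The Serpina3 copies had diverged further, with 80.8% to 91.8% identity over the coding sequence and 45.0% to 74.5% over the aligned capital bases. The 4 pairs with Serpina3g align over 642 to 648 coding bases only, since its transcript used here codes 248 codons, and the other 6 pairs were 83.5% to 91.8% identical. The loops of the Serpina3 copies also differ in length. The stretches of the 3 members with the most counts, and of Serpina3g for contrast, were the following, on the same build and with the same use of capitals.
Serpina3g: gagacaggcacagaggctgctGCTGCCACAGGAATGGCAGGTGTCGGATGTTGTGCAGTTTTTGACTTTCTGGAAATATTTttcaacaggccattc
Serpina3k: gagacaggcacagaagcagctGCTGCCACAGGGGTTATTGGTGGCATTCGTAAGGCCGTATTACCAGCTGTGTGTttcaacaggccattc
Serpina3m: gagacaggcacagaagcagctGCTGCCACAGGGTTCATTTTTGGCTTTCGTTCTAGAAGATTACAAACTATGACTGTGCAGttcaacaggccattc
Serpina3n: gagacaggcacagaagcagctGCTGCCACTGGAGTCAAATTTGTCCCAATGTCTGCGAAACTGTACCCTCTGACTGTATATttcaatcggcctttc

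The loop-coding stretch of Serpina3n lies at chr12:104413442-104413537 on the plus strand and that of Serpina1e at chr12:103947093-103947179 on the minus strand. The 5 Serpina1 copies span 231 kb (chr12:103728156-103958975) and the 5 Serpina3 members 268 kb (chr12:104146382-104414329). All the Serpina1 copies and Serpina3c lie on the minus strand, and Serpina3g, Serpina3k, Serpina3m and Serpina3n on the plus strand.

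Near-identity matters for the counts, since the authors left out reads that mapped to several places. Of all 100-base windows of the annotated Serpina1c transcripts, 30.7% occurred in no other gene, against 57.2% for Serpina1a, 70.7% for Serpina1d, 85.2% for Serpina1b and 85.6% for Serpina1e. The windows pool all annotated transcripts, so these percentages depend on annotated length as well as on likeness. Each Serpina1 copy codes 1239 bases. The windows, however, number 1262 for Serpina1c, 1295 for Serpina1d, 1518 for Serpina1e, 1795 for Serpina1a and 2306 for Serpina1b. Serpina1c shared 58.0% of its windows with Serpina1a, whether or not other genes held them too. The same 732 windows were 40.8% of those of Serpina1a. Of the 1361 exon bases of Serpina1c, 429 also belong to the annotated gene B430119L08Rik. The Serpina3 members were mostly distinguishable, from 93.9% of windows for Serpina3m and 95.1% for Serpina3k to 96.5% for Serpina3g, 99.8% for Serpina3n and 100% for Serpina3c. Values of the Serpina1 copies, and of Serpina1c above all, are therefore uncertain as absolute levels. Each value refers to the part of the transcript that can be told apart, which is the same part in both genotypes.

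**Figure D1:**
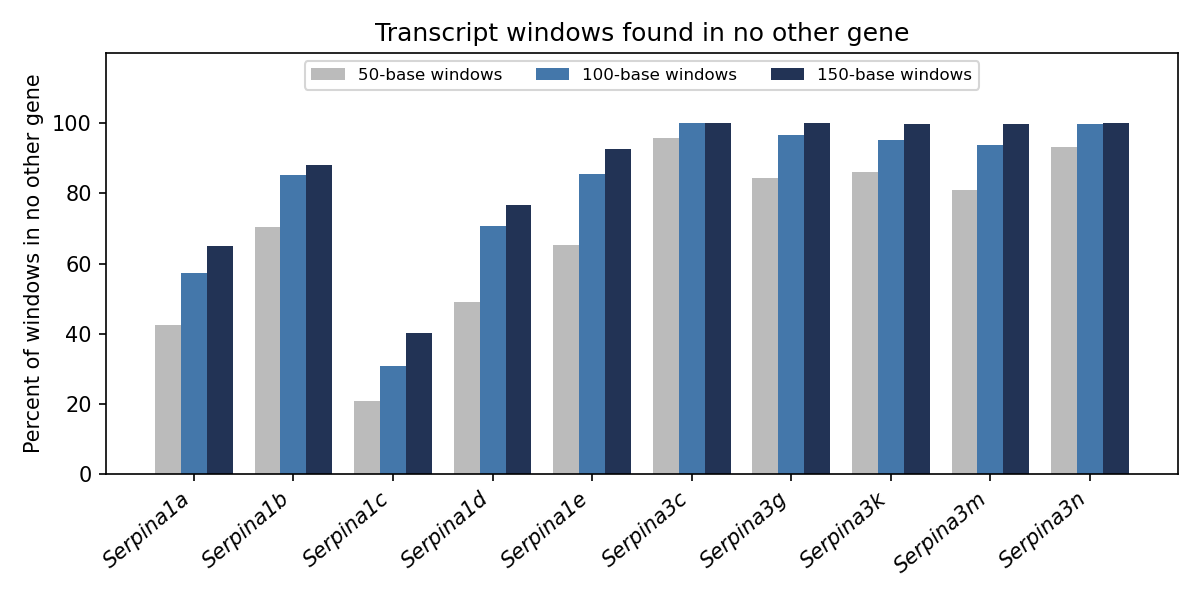
Percent of the 50-, 100- and 150-base windows of each member's annotated transcripts that occur in no other gene (vertical axis), for the 10 members (horizontal axis). Serpina1c has the lowest share at each window length, with 30.7% at 100 bases, and Serpina3n reaches 99.8%.

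The alpha-1-antitrypsin copies were abundant in every liver and none of the 5 passed the test. The background to read this against is 4.08% of all 12234 tested genes past an adjusted p of 0.15, the threshold of the study, and 3.64% with genotypes that did not overlap. By direction, 1.51% were called higher and 2.57% lower, 2.26% were lower with no overlap, and 1.35% passed 0.05. Of the 9 tested members 1 was called, in the lower direction, 0 passed 0.05 and 0 had genotypes that did not overlap. Serpina1e carried the largest share of the family counts, with 14912, 10622, 9961, 14211 and 9080.4 normalized CPM in wild-type mice 1 to 5, against 9319, 9949, 6573, 7649.8 and 13816 in Thrb hep-/- mice 1 to 5. The genotypes overlapped widely, since Thrb hep-/- mouse 5 was above 3 of the 5 wild-type mice. Its mean was 11757 ± 2629.6 (SD, n = 5) against 9461 ± 2777 (SD, n = 5), a log2 fold change of −0.31 with a 95% interval from −0.77 to 0.14 (edgeR adjusted p = 0.56).

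Serpina1a came nearest to a difference within this family. It measured 1116, 1014, 1039.8, 1260.0 and 1069.8 normalized CPM in wild-type mice 1 to 5, against 1007, 1038, 871, 828 and 1001 in Thrb hep-/- mice 1 to 5. In 4 of 5 Thrb hep-/- mice the value was below the lowest wild-type mouse. The log2 fold change was −0.21 (95% interval −0.43 to 0.0083, edgeR adjusted p = 0.39).

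Serpina1b, the copy with the next highest counts, ranged from 3542 to 4402 normalized CPM in wild-type and from 3134 to 4458 in Thrb hep-/- livers (log2 fold change −0.11, 95% interval −0.38 to 0.15, edgeR adjusted p = 0.75). Serpina1d ranged from 1853 to 2105 and from 1543 to 2463 (log2 fold change 0.019, 95% interval −0.25 to 0.29, edgeR adjusted p = 0.97). Serpina1c ranged from 414 to 564 and from 369 to 659 (log2 fold change −0.016, 95% interval −0.34 to 0.31, edgeR adjusted p = 0.98). The signs of Serpina1c and Serpina1d turned when single mice were left out. In all 3 the wild-type range lay inside the Thrb hep-/- range, and the spread between Thrb hep-/- mice was the wider. The coefficient of variation of Serpina1d, for example, was 5.50% in wild-type and 17.1% in Thrb hep-/- livers.

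Summed over the 5 copies, Serpina1 reached 22758, 17446, 17039, 21925 and 16832 normalized CPM in wild-type mice, against 16408, 18567, 12797, 13578 and 21024 in Thrb hep-/- mice. The mean of 19199.8 ± 2891 (SD, n = 5) stood against 16475 ± 3428 (SD, n = 5), which is −0.22 on the log2 scale beside a pooled SD of 0.26 between mice. Serpina1e made up 60.7% ± 4.77 (SD, n = 5) of this sum in wild-type livers, against 56.8% ± 5.47 (SD, n = 5) in Thrb hep-/- livers, Serpina1b 20.6% and 22.3%, Serpina1d 10.4% and 12.2%, Serpina1a 5.78% and 5.88%, and Serpina1c 2.50% and 2.85%. No share separated the genotypes. Dividing by the number of distinguishable windows raised the part of Serpina1c to 7.99% and 9.04% and left Serpina1e first, at 58.0% and 53.6%.

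**Figure D2:**
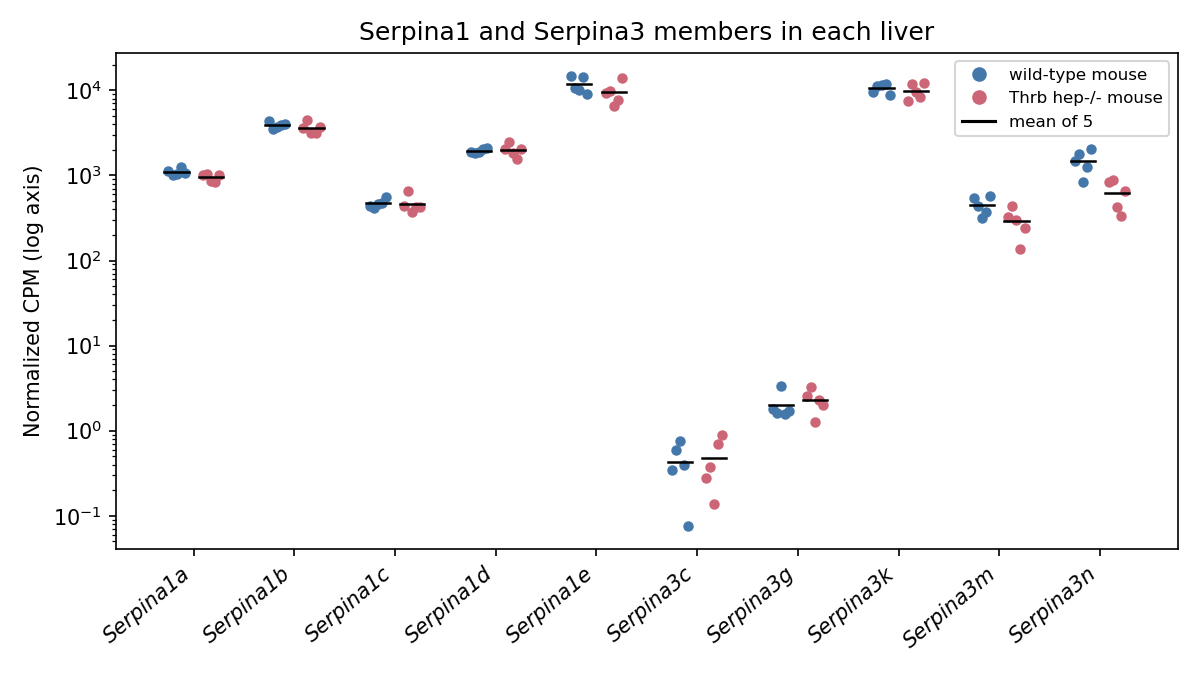
Normalized CPM on a log axis for each of the 10 members (horizontal axis), with 1 point per mouse, blue for wild-type and red for Thrb hep-/-, and a black line at the mean of 5. The points of the genotypes overlap in all 10 members, and the Serpina3n means stand farthest apart, at 1476 and 628.

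In the antichymotrypsin family Serpina3n fell and its abundant neighbour Serpina3k did not pass the test. Serpina3n (ENSMUSG00000021091, chr12:104406729-104414329), an inhibitor of granzyme B and of neutrophil proteases, measured 1470.0, 1782, 834, 1261 and 2033 normalized CPM in wild-type mice 1 to 5. In Thrb hep-/- mice 1 to 5 it measured 839, 894, 429, 331 and 648. The genotypes overlapped at 1 point, since wild-type mouse 3 lay just below Thrb hep-/- mice 1 and 2, while the other 4 wild-type mice were above every Thrb hep-/- mouse. The mean went from 1476 ± 464 (SD, n = 5) to 628 ± 247 (SD, n = 5), which is 42.6% of the wild-type level. The log2 fold change was −1.23 (standard error 0.31, 95% interval −1.91 to −0.56, adjusted p = 0.081 by the quasi-likelihood F-test of edgeR, corrected over all tested genes after Benjamini and Hochberg). It passed the threshold of 0.15 and not the stricter one of 0.05.

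This call depended on single libraries. Without wild-type mouse 2 the adjusted p from edgeR was 0.20 (log2 fold change −1.16), without wild-type mouse 5 it was 0.19 (−1.09), without Thrb hep-/- mouse 3 it was 0.19 (−1.12) and without Thrb hep-/- mouse 5 it was 0.151 (−1.24), and without the filter on low counts it was 0.21 (−1.24).

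Serpina3k, the copy known as contrapsin, held most of the family counts. It measured 9460.0, 11284, 11569, 11837 and 8819 normalized CPM in wild-type mice 1 to 5, against 7541, 11706, 9456, 8248 and 12324 in Thrb hep-/- mice 1 to 5. The 2 highest Thrb hep-/- mice reached the wild-type level and the others lay near or below its lower end. The log2 fold change was −0.10 (95% interval −0.45 to 0.24, edgeR adjusted p = 0.84). The difference between Serpina3k and Serpina3n was itself not tested.

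Serpina3m lies between them on the chromosome. It measured 539, 434, 320.1, 376 and 574 normalized CPM in wild-type mice 1 to 5, against 324, 437, 301, 138 and 240.0 in Thrb hep-/- mice 1 to 5. In 3 of 5 Thrb hep-/- mice the value was below the lowest wild-type mouse. The log2 fold change of −0.64 (95% interval −1.24 to −0.043) had an unadjusted p of 0.038 and did not pass after adjustment (edgeR adjusted p = 0.33). Serpina3k and Serpina3m share 60 annotated exon bases, and a read on those bases was counted for neither.

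Serpina3g, an inhibitor of lysosomal cathepsins also called Spi2A, was near the limit of the filter. It had 37 to 95 counts per library, or 1.78, 1.61, 3.40, 1.56 and 1.68 normalized CPM in wild-type mice, against 2.54, 3.22, 1.27, 2.28 and 2.02 in Thrb hep-/- mice. Wild-type mouse 3 was the highest of all 10 (log2 fold change 0.17, 95% interval −0.43 to 0.77, edgeR adjusted p = 0.85). Serpina3c had 2 to 25 counts per library, 0.0748 to 0.751 normalized CPM in wild-type and 0.137 to 0.884 in Thrb hep-/- livers. At this depth 3 counts are worth 0.0993 to 0.117 CPM, and no difference in Serpina3c was tested.

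The makeup of the family is seen in its sum. The 5 Serpina3 members reached 12521 ± 1026 (SD, n = 5) normalized CPM in wild-type livers, against 10774 ± 2233 (SD, n = 5) with the deletion, which is −0.22 on the log2 scale beside a pooled SD of 0.23. Serpina3k made up 82.5%, 83.6%, 90.9%, 87.8% and 77.2% of the sum in wild-type mice 1 to 5, against 86.6%, 89.8%, 92.8%, 94.6% and 93.3% in Thrb hep-/- mice 1 to 5, and Serpina3n 12.8%, 13.2%, 6.56%, 9.36% and 17.8% against 9.63%, 6.86%, 4.21%, 3.79% and 4.91%. The shares overlapped through wild-type mice 3 and 4 and Thrb hep-/- mice 1 and 2. Left without Serpina3k, the sum of the family differed by −1.07 on the log2 scale.

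**Figure D3:**
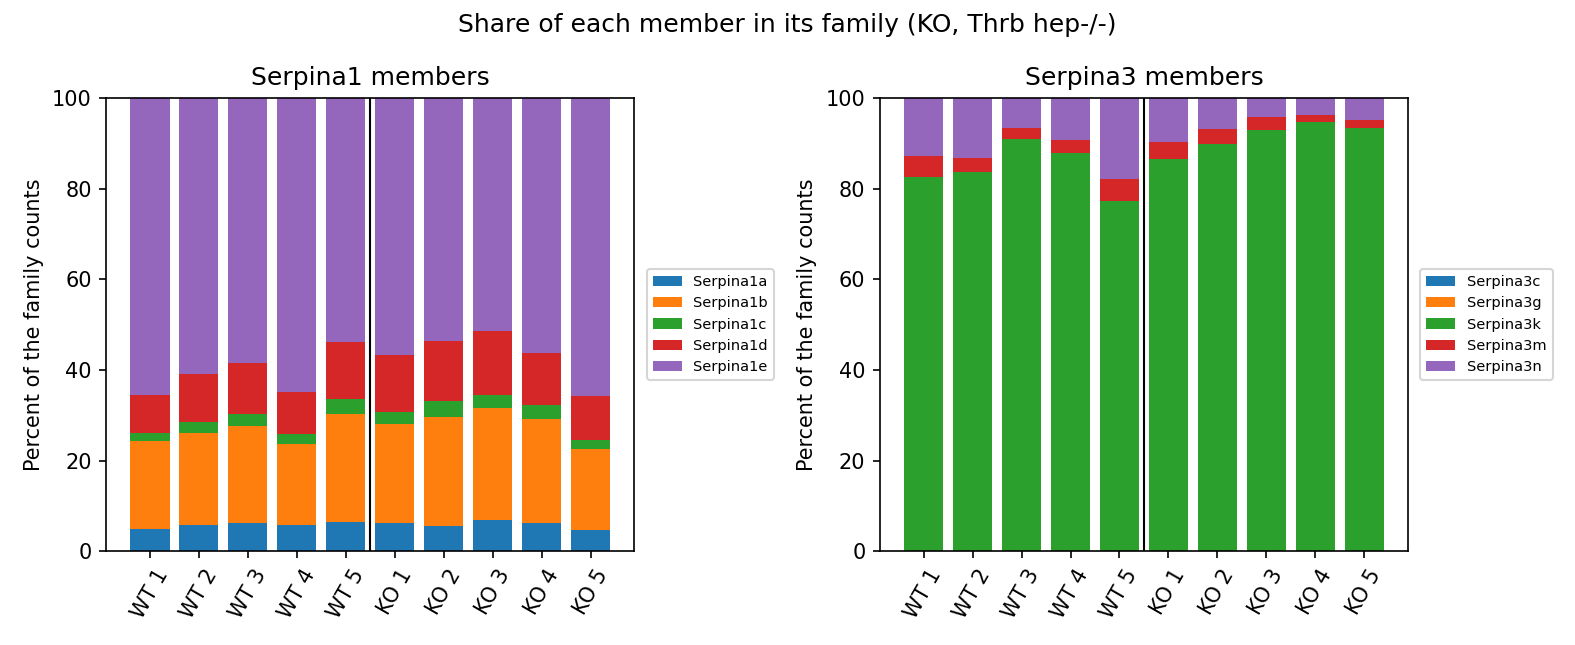
Percent of the summed normalized CPM of each family (vertical axis) held by each member, 1 stacked bar per mouse, Serpina1 on the left and Serpina3 on the right, with wild-type mice before the black line and Thrb hep-/- mice after it. Serpina1e holds 60.7% and 56.8% of its family on average, and the Serpina3n part averages 11.9% in wild-type and 5.88% in Thrb hep-/- livers.

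Compared per kilobase of annotated exon, the order of the levels in wild-type livers was Serpina1e (7271 ± 1626 CPM per kb, SD, n = 5), Serpina3k (5150.2 ± 662), Serpina1b (1620.4 ± 139), Serpina1d (1406 ± 77.3), Serpina3n (715 ± 225), Serpina1a (600.4 ± 53.0), Serpina1c (345 ± 42.3), Serpina3m (261 ± 62.4), Serpina3g (0.953 ± 0.371) and Serpina3c (0.194 ± 0.116). The wild-type ranges of Serpina1e and Serpina3k overlapped, as did those of Serpina1b and Serpina1d, of Serpina3n and Serpina1a, and of Serpina1c and Serpina3m. The exon bases pool all annotated transcripts, with 2415 for Serpina1b and 1394 for Serpina1d. Which transcripts the livers used was not tested. In Thrb hep-/- livers Serpina3n (304 ± 120 CPM per kb, SD, n = 5) was below Serpina1a (518 ± 50.8) with no overlap of their ranges. It was also below Serpina1c (341 ± 82.7) in the mean, with ranges that overlapped. Per 1000 distinguishable windows in place of exon length, Serpina1d (2142 ± 118 CPM in wild-type) came before Serpina1b (1993 ± 171), and Serpina1c (1212 ± 149) came before Serpina1a (1072 ± 94.7). On that scale Serpina3n (753 ± 237) was below both of them in wild-type livers already. Its change of place is therefore seen per kilobase only. In Thrb hep-/- livers its mean was below that of Serpina1a on both scales (320 ± 126 against 925 ± 90.8 per 1000 windows). The other neighbours named here cannot be ranked from the counts, nor can Serpina3n and Serpina1a in wild-type livers.

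The rest of the cluster was not uniform either. Of 7 other clade A genes that passed the filter, counting Serpina7, which lies outside the cluster, 1 rose and 1 fell. Serpina6, the corticosteroid-binding globulin of plasma, measured 251, 181, 173, 209 and 218 normalized CPM in wild-type mice, against 278, 342, 325, 278 and 239 in Thrb hep-/- mice (log2 fold change 0.50, standard error 0.12, edgeR adjusted p = 0.074). Serpina10, the protein Z-dependent inhibitor of coagulation factor Xa and the next gene along the chromosome, measured 498, 509.7, 336, 472 and 453 in wild-type mice, against 344, 347, 244, 254 and 335 in Thrb hep-/- mice (log2 fold change −0.57, standard error 0.14, edgeR adjusted p = 0.070). In each of the 2 genes a single mouse made the genotypes overlap.

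Serpina7, the thyroxine-binding globulin, spread too widely between mice to be placed, at 33.0 ± 24.3 normalized CPM in wild-type livers and 49.2 ± 16.9 with the deletion (SD, n = 5) (log2 fold change 0.57, 95% interval −0.50 to 1.65, edgeR adjusted p = 0.66). Serpina9 (−0.42), Serpina11 (−0.17), Serpina12, the adipokine vaspin (0.24), and the pseudogene Serpina4-ps1 (0.10) had log2 fold changes that did not pass the test. Of 8 further annotated copies of the families, Serpina3f alone passed the filter (0.18, edgeR adjusted p = 0.84), and Serpina1f was at 0 counts in all 10 libraries. Serpins of other clades gave 1 call in 10 tested genes, Serpinh1, the collagen chaperone HSP47, which rose (log2 fold change 0.61, edgeR adjusted p = 0.090). Serping1, the C1 inhibitor (−0.37, edgeR adjusted p = 0.17), and Serpinb9, a granzyme B inhibitor (−0.58, edgeR adjusted p = 0.16), had genotypes that did not overlap but missed the threshold.

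**Figure D4:**
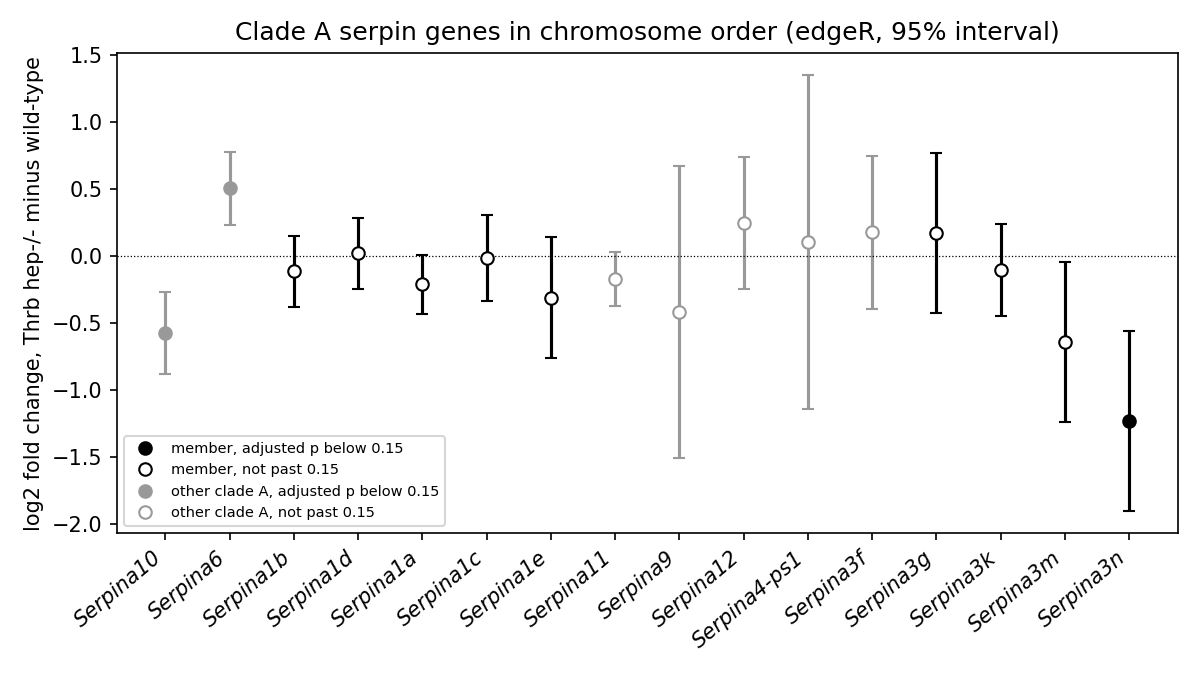
Fitted log2 fold change, Thrb hep-/- minus wild-type (vertical axis), with its 95% interval for the tested clade A genes in their order along chromosome 12 (horizontal axis), Serpina7 not shown as it lies outside the cluster. Members are black and other genes grey, and filled points passed an adjusted p of 0.15, namely Serpina10 (−0.57), Serpina6 (0.50) and Serpina3n (−1.23).

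Serpina3n is an acute-phase gene of mouse liver, and the acute-phase genes as a group were lower in Thrb hep-/- livers. Of 20 such genes, a list chosen with earlier results of these data known and holding no member, 12 fell and none rose, with a median log2 fold change of −1.03 beside 0.00054 over all tested genes and 2.57% of all tested genes called lower. The 4 of smallest p were Lbp, the binding protein of bacterial lipopolysaccharide (log2 fold change −0.81, edgeR adjusted p = 0.021), Hp (−1.33, 0.022), Itih4 (−0.98, 0.026) and the iron-siderophore binder Lcn2 (−4.18, 0.048). Saa1, an inducible serum amyloid A named after its values were seen, measured 1009.8, 7135, 265, 822 and 3669 normalized CPM in wild-type mice, against 66.1, 158, 25.8, 33.0 and 112 in Thrb hep-/- mice (log2 fold change −5.03, edgeR adjusted p = 0.048). Its highest wild-type values were in mice 2 and 5 and its lowest in mouse 3, which were also the highest and the lowest wild-type mice for Serpina3n.

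Among all genes that were not members, those whose profile over the 10 mice lay nearest to Serpina3n were Itih3, Hp and Nnmt. The measure was the mean absolute difference of centred log2 CPM, which was 0.18 for Itih3, 0.21 for Hp and 0.23 for Nnmt, against a median of 0.69 over all tested genes. Serpina3n itself lay 0.66 from its own mean on average. A gene that hardly varied would therefore lie near the median distance. The 10 points share their libraries and the genotype, so this is a description of likeness. Itih3, a heavy chain of inter-alpha-trypsin inhibitors, had a log2 fold change of −1.09 (edgeR adjusted p = 0.059), Hp, which encodes haptoglobin, −1.33 (edgeR adjusted p = 0.022) and Nnmt, nicotinamide N-methyltransferase, −0.90 (edgeR adjusted p = 0.13).

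The members themselves differed in likeness. The nearest pairs were Serpina1b with Serpina1d (0.081) and Serpina1a with Serpina1b (0.084). Pairs among 4 Serpina1 copies lay 0.081 to 0.18 apart, and Serpina1e lay 0.21 to 0.36 from them. The measure is not scaled for spread. The same 4 copies lay 0.11 (Serpina1a) to 0.17 (Serpina1c) from their own means on average. Small distances among them therefore do not by themselves show a shared pattern. Serpina3n was nearer to Serpina3m (0.29) than to Serpina3k (0.70), although it shares its chromosomal neighbourhood with both. The distance to Serpina3k is close to the 0.66 that Serpina3n lay from its own mean.

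**Figure D5:**
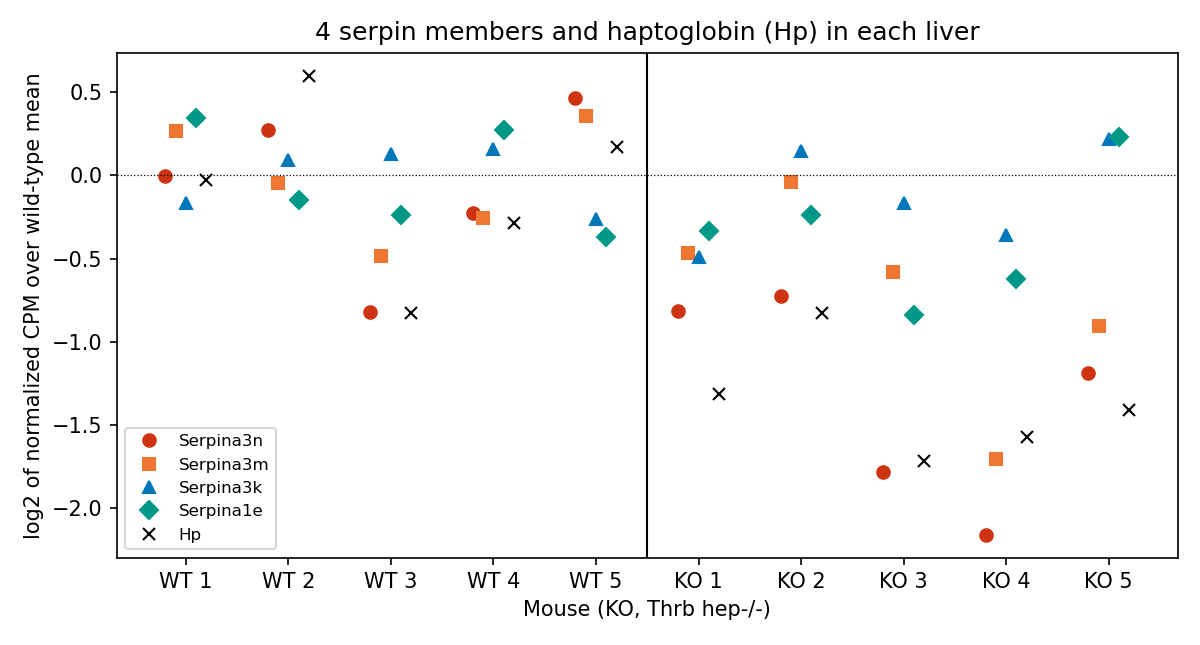
Log2 of normalized CPM over the wild-type mean (vertical axis) for Serpina3n, Serpina3m, Serpina3k, Serpina1e and haptoglobin (Hp) in each of the 10 mice (horizontal axis), wild-type to the left of the black line and Thrb hep-/- (KO) to the right. Serpina3n and Hp both have their lowest wild-type value in mouse 3, and in Thrb hep-/- livers their log2 fold changes were −1.23 and −1.33.

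Of 5 neutrophil markers only S100a8 passed the filter, and it was lower (log2 fold change −2.67, edgeR adjusted p = 0.13). Their summed level was 1.76 to 15.1 CPM in wild-type and 0.265 to 2.29 CPM in Thrb hep-/- livers, with Ly6g under the level of 3 counts in all 10 libraries. All 5 Kupffer cell markers were fitted lower (median log2 fold change −0.75) without passing the test, Timd4 (−0.91, edgeR adjusted p = 0.30) and Adgre1 (−0.83, edgeR adjusted p = 0.37) with the smallest p, at a summed 77.7 to 269 CPM and 89.7 to 192 CPM. The part of these cells in the Serpina3n result was not tested, and in bulk liver fewer cells of a type and less RNA per cell cannot be told apart.

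Among 10 proteases that serpins of these families are known to inhibit, or their close relatives, 5 passed the filter and 1 was called. Prtn3, the neutrophil protease proteinase 3, measured 16.9, 26.5, 7.94, 12.0 and 25.9 normalized CPM in wild-type mice, against 2.33, 0.825, 0.206, 0.0662 and 0.530 in Thrb hep-/- mice, with no overlap (log2 fold change −4.50, standard error 0.66, edgeR adjusted p = 0.012). Wild-type mice 2 and 5 were again the highest and mouse 3 the lowest. The lysosomal protease Ctsl was next by p (log2 fold change −0.33, edgeR adjusted p = 0.41). Elane and Ctsg, the usual companions of Prtn3 in neutrophil granules, stayed below the filter.

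The genes that handle serpins in the secretory pathway did not pass the test in either direction, 0 of 10. They include the cargo receptor Lman1, the folding lectin Calr and the degradation factor Edem1, the last with a log2 fold change of −0.18 (edgeR adjusted p = 0.39), and the smallest p belonged to the chaperone Canx (0.20, edgeR adjusted p = 0.32). Of 13 transcription factors, receptors and feedback regulators of these families, 0 passed. The smallest p were those of Foxa2 (−0.28, edgeR adjusted p = 0.27) and of the interleukin-1 receptor Il1r1 (−0.71, edgeR adjusted p = 0.28), and Hnf4a had a log2 fold change of 0.05.

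The sequence before the transcription start was also examined, as a description of the members. RefSeq promoters on GRCm38.p6 were at hand for 8 members, all but Serpina3k and Serpina3m, and the 250 bases before each start were read. The 5 Serpina1 promoters were 92.1% to 98.0% identical in pairs, over aligned bases that numbered only 188 to 199 in the pairs with Serpina1e. They hold the following stretch of 55 bases in common, shown for Serpina1a (chr12:103863625-103863679, minus strand).
Serpina1 promoters: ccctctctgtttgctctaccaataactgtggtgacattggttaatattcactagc

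Short motifs were searched on both strands and set beside their frequency in all 27025 promoters of this length. In Serpina3n the window is shown whole, at chr12:104406458-104406707 on the plus strand, and capitals mark a match to the NF-kB letters (GGG, any 2 bases, TTTCC), found in 1.40% of all promoters, and a match to the glucocorticoid receptor letters ACANNNTGT, found in 5.91%. The matches do not overlap.
Serpina3n promoter: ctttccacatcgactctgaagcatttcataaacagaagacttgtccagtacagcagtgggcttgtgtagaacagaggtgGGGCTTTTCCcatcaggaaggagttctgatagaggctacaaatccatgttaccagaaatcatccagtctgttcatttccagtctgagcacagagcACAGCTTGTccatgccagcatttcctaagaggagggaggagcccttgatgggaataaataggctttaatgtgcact

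Serpina3g was the only other member with the NF-kB letters in its window, and it alone held the STAT letters TTCNNNGAA (7.18% of all promoters). Serpina1b, Serpina1d and Serpina1e held the C/EBP letters TTGCNNAA (9.55%), Serpina1a and Serpina3c the glucocorticoid receptor letters, and Serpina3c also the TATA letters TATAAA (13.0%). The thyroid hormone receptor letters AGGTCA, present in 13.8% of all promoters, were in the window of none of the 8 members. A match is a description of letters only, and the counts say nothing on binding.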

How the data were processed

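Stranded mRNA libraries of 10 livers, taken as 1 per mouse, were grouped by the genotype in the sample titles. The authors mapped reads on mm10 (GRCm38) with HISAT2 2.2.1 and counted them on Ensembl release 102 genes with HTSeq 0.9.1 (versions per the submitters' processing notes), with the union rule, alignment quality of 10 or more and no use of strand, so that antisense reads are not separated. Reads mapped to several places or genes were not counted. The deposited values are raw counts. A deposited table of the authors' own edgeR comparison (fold changes, F and p-values) was not used. No source states how RNA samples relate to animals beyond 1 title per sample, so p-values measure the spread between these samples. No 2 libraries of the same genotype agreed within sampling noise.

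Genes reaching 1 CPM in 5 or more libraries were compared with edgeR 4.0.16 in R 4.3.3 (TMM factors, quasi-likelihood test with robust settings, Benjamini-Hochberg adjustment over 12234 genes). Normalized CPM use TMM-scaled totals, and log2 CPM a prior count of 2. Intervals are 95% intervals of the fit. The fit was tested on simulated data. Alternatives were DESeq2 1.42.0, limma-voom (limma 3.58.1), RLE and upper-quartile factors, no filter, filterByExpr, no robust settings, a replicate block and leaving out each mouse. For the sums, plain CPM, DESeq2 size factors, further copies and leaving out the top member were tried. Named genes are all members, Thrb, the tested clade A genes and copies, the 2 to 4 genes of smallest p in each other list, and the 3 nearest profiles to each called member; Saa1, Ly6g, Elane, Ctsg, Lman1, Calr and Hnf4a were named after their values were seen. The members and lists were chosen with earlier results of these data known. Same-numbered mice did not deviate together (correlations from −0.20 to 0.0091), so the numbers were not taken as pairs. Window uniqueness and coding sequences come from GENCODE M21 transcripts on GRCm38, in another release than the authors' annotation, and exact matches on either strand were counted. Serpina1-ps1 was not analysed here.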

Additional observations from a re-analysis of the deposited data

Results flagged for a closer look

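In 60 groups of 5 mice (the members, the other tested clade A genes, the sums and the shares in each genotype), 3 values stood far from the other 4 by Dixon's test. Chance flags about 1 in 20 groups, which is 3 of 60. Serpina1c was 659 normalized CPM in Thrb hep-/- mouse 2 against 369 to 441 in the other 4. Without that mouse its log2 fold change was −0.17. Serpina3g was 3.40 normalized CPM in wild-type mouse 3 against 1.56 to 1.78 in the others, and its share of the Serpina3 sum in that mouse, 0.0267%, stood apart too (0.0116% to 0.0155% in the others). Without wild-type mouse 3 the log2 fold change of Serpina3g was 0.45.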

How the results depend on the processing

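Of all tested genes, 499 passed an adjusted p of 0.15 with edgeR, against 885 with DESeq2 and 222 to 665 with each mouse left out (227 without wild-type mouse 2, 239 without wild-type mouse 5, 222 without Thrb hep-/- mouse 3). With the replicate number as a block, 348 passed, Serpina3n among them, and no other call on a member changed. The numbers do not pair the mice. The count of members past the threshold was 1, and it was 0 without the filter on low counts and 0 to 1 with each mouse left out. The log2 fold change of Serpina3n stayed between −1.39 and −1.07 over 18 alternatives and passed in 13 (adjusted p from 0.00073 to 0.21). With each mouse left out, Serpina1c ran from −0.17 to 0.058 and Serpina1d from −0.066 to 0.097, so neither has a settled direction. The Serpina3 sum differed by −0.22 on the log2 scale, by −1.07 without Serpina3k and otherwise by −0.30 to −0.15, and the Serpina1 sum by −0.32 to −0.086. With 50- and 150-base windows the distinguishable part of Serpina1c was 20.7% and 40.3%. The cause of each of these changes was not tested. Depth limits Serpina3c and Serpina3g, whose counts were at most 25 and 95 per library.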

Other observations

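Serpina1e had the widest range between mice within its family, 1.64-fold in wild-type and 2.10-fold in Thrb hep-/- livers. Among the copies it lay nearest to Serpina1a, at 0.21 on the log2 scale, and Serpina1e itself lay 0.30 from its own mean on average. Chosen after its values were seen, the gene nearest to it in profile was Wwox, an oxidoreductase gene, at a distance of 0.11 on the log2 scale against a median of 0.35 over all tested genes. Wwox measured 11.0, 8.11, 7.58, 9.06 and 7.22 normalized CPM in wild-type mice and 9.17, 7.16, 5.63, 5.83 and 9.94 in Thrb hep-/- mice (log2 fold change −0.19, edgeR adjusted p = 0.70). Nearest to Serpina3m was Got1, the cytosolic aspartate aminotransferase, at 0.14 against a median of 0.47, with 460.2, 366, 287, 301 and 451 normalized CPM in wild-type mice and 228, 463, 232, 104 and 236 in Thrb hep-/- mice. Like Serpina3m, Got1 was lowest in Thrb hep-/- mouse 4 (log2 fold change −0.56, edgeR adjusted p = 0.49). The pseudogene Serpina4-ps1 had the widest spread of the tested clade A genes beside Serpina7 and Serpina9, from 45.9 to 366 normalized CPM in wild-type and from 76.1 to 315 in Thrb hep-/- livers.

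Of 5 stellate cell markers, Des rose (log2 fold change 0.67, edgeR adjusted p = 0.057) and the other 4 did not pass, Dcn among them (0.29, edgeR adjusted p = 0.27). None of the tested markers of other cells passed, among 5 endothelial (Kdr 0.26, edgeR adjusted p = 0.20), 3 cholangiocyte (Spp1 −0.42, 0.32) and 2 leukocyte genes (Ptprc −0.55, 0.27).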
